A study of Mus musculus with 6 samples.

Results

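The erythroid genes described here are 8 genes of red cell formation: Slc4a1, Epb42 and Rhag of the red cell membrane, Alas2 and Ahsp of haemoglobin production, Tfrc of iron uptake, and the transcription factor genes Klf1 and Gata1. The 8 genes were chosen with earlier results of these data known, so they are not a set picked blind to these arrays. Every probe set on either array was taken whose annotation named 1 of these genes, under its current or an older symbol, and no other. Of the 8, 7 had a probe set, among 18193 genes with a single symbol on the 2 chips, and Ahsp, which encodes a chaperone of free alpha globin, was not analysed here. The 7 genes had 12 probe sets, all on chip A, and Tfrc had 3 further control probe sets that both chips carry, which gave 18 measurements in all.

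The study looked for transcripts of mature olfactory sensory neurons (OSNs) in OMP-GFP mice, in which GFP stands in place of the coding region of the OSN gene Omp. The first population was OSNs sorted by their fluorescence (about 500000 cells), the second was the olfactory epithelium that remained without them (about 2500000 cells, here the residual epithelium), and the third was brain without olfactory bulbs. All 3 came from these mice, and the sources used here give no age, sex, number of animals or number of Omp copies replaced. RNA of each population was hybridised to 1 array of chip A and 1 of chip B of an Affymetrix mouse expression set, so there were 6 arrays, no replicates and no test, and every difference below lacks a replicate check.

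Red cells arise in the bone marrow from precursors in which the zinc finger factors Gata1 and Klf1 switch on globin, heme synthesis and membrane genes together. Alas2 encodes the erythroid form of the enzyme that starts heme synthesis, and Tfrc encodes the receptor that brings in transferrin-bound iron, which dividing cells of many kinds also need. Mature mammalian red cells have no nucleus, and the youngest ones, the reticulocytes, still carry messenger RNA. Neither olfactory epithelium nor adult brain is known as a site of red cell formation.

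The windows of 250 bases before the gene start show the bases next to the starts of genes that were high in residual epithelium. RefSeq sequences of build GRCm38.p6 were at hand for 6 of the 7 measured genes (all but Slc4a1), and the 3 shown, of the heme enzyme, of a transcription factor and of a membrane protein, are those that hold both a GATA and a CACCC match, so they do not stand for the whole set. They lie at chrX:150547167-150547416 (Alas2), chr8:84901732-84901981 (Klf1) and chr17:40810899-40811148 (Rhag), all on the + strand. Capitals mark, on either strand, AGATAA or TGATAA (the letters GATA factors bind), CACCC (a core of sites for KLF factors) and TATAAA (the TATA box).
Alas2: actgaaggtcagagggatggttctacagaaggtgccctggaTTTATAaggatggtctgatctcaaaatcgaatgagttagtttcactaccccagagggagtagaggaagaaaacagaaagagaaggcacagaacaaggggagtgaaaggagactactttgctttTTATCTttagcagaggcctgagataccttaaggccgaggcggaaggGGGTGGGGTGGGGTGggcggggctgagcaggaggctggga
Klf1: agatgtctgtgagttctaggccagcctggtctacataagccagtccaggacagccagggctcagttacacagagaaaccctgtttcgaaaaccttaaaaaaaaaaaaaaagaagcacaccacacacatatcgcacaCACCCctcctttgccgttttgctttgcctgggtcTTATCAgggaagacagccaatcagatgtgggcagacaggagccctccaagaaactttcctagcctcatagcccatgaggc
Rhag: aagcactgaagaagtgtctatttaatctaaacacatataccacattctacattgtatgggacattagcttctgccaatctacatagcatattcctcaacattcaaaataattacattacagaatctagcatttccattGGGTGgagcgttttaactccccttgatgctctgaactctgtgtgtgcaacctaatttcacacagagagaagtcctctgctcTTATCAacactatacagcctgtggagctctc

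A GATA match was found in 4 of the 6 genes, against 16.6% of all 32851 windows of the table. It lay on the strand opposite to the gene in each, at positions -86 to -81 in Alas2, -80 to -75 in Klf1, -31 to -26 in Rhag and -226 to -221 in Epb42, counted back from the gene start, and Gata1 and both windows of Tfrc held none. CACCC was found in 5 of the 6 genes, all but Epb42, and in 6 of the 7 windows, against 52.0% of all windows. Neither motif was thus in all 6 genes. Alas2 had 3 such matches in a row between -40 and -26, and its TATAAA match at -209 to -204 ran on the opposite strand. The longer CCACACCC of the globin promoters was in none of the 6 and in 3.20% of all windows. CAGTG, the loop letters of iron-responsive elements, was not in the first 50 transcribed bases of Alas2. A match of letters is not a measured binding site, and no match in these windows says nothing about sites elsewhere.

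Signals are array intensities on a linear scale. Median signals of the arrays lay between 194.6 and 239.6 on chip A and between 224.7 and 257.7 on chip B. By its brighter probe set Omp, which marks the sort, had 11057 in OSNs, against 248.8 in residual epithelium and 201.4 in brain. Actb likewise had 12555 in OSNs, against 14779 in residual epithelium and 16436 in brain. The other Omp probe set was dim, with 17.5 (OSNs), 28.0 (residual epithelium) and 19.4 (brain). The other Actb one had 1305 (OSNs), 654.3 (residual epithelium) and 899.1 (brain), so it was highest in OSNs. Neurog1, a factor of olfactory neuron precursors, had 10.8 (OSNs), 1186 (residual epithelium) and 4.6 (brain), and the myelin gene Mbp had 168.3 in OSNs, against 198.2 in residual epithelium and 11202 in brain, so each array of chip A was high for a gene of its own label. Where the Omp probes lie relative to the replaced region is not known, so Omp checks the sort and not the allele. For ratios, any signal under the lower quartile of its chip was set to that quartile (the floor, 70.3 for chip A, 79.7 for chip B). A probe set counted where the higher of the signals compared reached the chip median (222 on chip A, 243.7 on chip B), and a fold against a signal below the floor is written "at least". The 99 probe sets counted on both chips, a measure of array error that leaves out animals, had ratios that differed between the chips with an SD of 0.25 log2 units for OSNs over residual epithelium, 0.29 for OSNs over brain and 0.34 for residual epithelium over brain. Chip A minus chip B averaged 0.23, -0.19 and -0.42 in these comparisons. Between 2 probe sets of 1 gene the SD of the difference in log2 ratio was larger, at 0.85, 1.05 and 1.03 in the same comparisons.

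The comparison of OSNs with residual epithelium, which asks what belongs to the neurons within the epithelium, found the erythroid genes on the side of the residual epithelium. Of the 12 probe sets, 11 were highest in residual epithelium, 1 was highest in brain and none in OSNs. The 9 probe sets of genes other than Tfrc were all below the chip median in both OSNs and brain, while all but 2 of them reached it in residual epithelium. In these bulk samples, fewer cells of a type and less RNA per cell cannot be told apart.

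**Figure D1:**
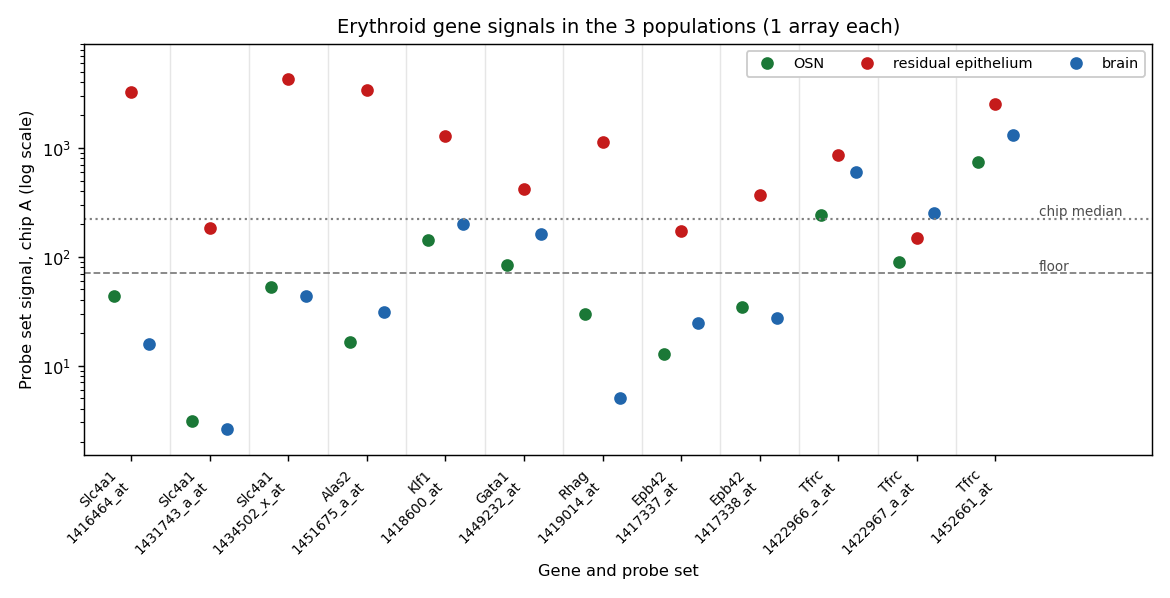
Signals of the 12 erythroid probe sets on chip A (vertical axis, log scale) in OSNs, residual epithelium and brain, 1 array each, with the floor (70.3) and the chip median (222) as lines. The residual epithelium point is the highest for 11 probe sets, and for Slc4a1, Alas2, Rhag and Epb42 the OSN and brain points lie below the floor.

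Among the membrane genes, Slc4a1, the band 3 anion exchanger that is the main protein spanning the red cell membrane, had the largest ratios. Its brightest probe set had 52.8 in OSNs, against 4264 in residual epithelium and 43.8 in brain. The second had 43.5 (OSNs), 3247 (residual epithelium) and 15.8 (brain). Residual epithelium stood far above both others, which were below the floor. Slc4a1 was therefore at least 60.7-fold and at least 46.2-fold lower in OSNs than in residual epithelium by these probe sets, and residual epithelium was above brain by the same limits. The third probe set was dim, with 3.1 in OSNs, against 183.4 in residual epithelium and 2.6 in brain, and was not counted, but residual epithelium was again the highest.

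Rhag encodes the Rh-associated glycoprotein, a partner of the Rh antigens in the band 3 complex, and had 30.0 in OSNs, against 1125 in residual epithelium and 5.0 in brain. Its signals in OSNs and in brain were each at most 6.25% of that in residual epithelium. Epb42, protein 4.2, which ties band 3 to the ankyrin of the skeleton, had 34.6 (OSNs), 366.9 (residual epithelium) and 27.6 (brain) by its brighter probe set, at least 5.22-fold lower in OSNs than in residual epithelium. Its other probe set had 12.7 in OSNs, against 173.7 in residual epithelium and 24.6 in brain, and did not reach the chip median in any population. All 3 membrane genes were below the floor in OSNs and in brain by every probe set, so nothing can be said of an order between those populations.

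Alas2 was the heme synthesis gene of the set, with 16.3 in OSNs, against 3393 in residual epithelium and 31.1 in brain. It was at least 48.3-fold lower in OSNs than in residual epithelium, and residual epithelium was at least 48.3-fold above brain. OSN signal was at most 2.07% of that in residual epithelium, and at most 1.65% for the brightest Slc4a1 probe set, both limits being set by the floor.

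The transcription factor genes had signals above the floor in all 3 populations. Klf1, which activates adult beta globin, had 143.1 (OSNs), 1282 (residual epithelium) and 199.0 (brain). It was 8.96-fold lower in OSNs than in residual epithelium, and 6.44-fold higher in residual epithelium than in brain. Gata1, which red cell precursors share with megakaryocytes and mast cells, had 83.0 in OSNs, against 414.9 in residual epithelium and 163.2 in brain, a log2 ratio of -2.32 for OSNs over residual epithelium. Its OSN signal was just above the floor, and with the floor at percentile 40 the ratio was -1.50. Residual epithelium was 2.54-fold above brain for Gata1. OSN and brain signals of both genes lay between the floor and the chip median.

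Ranked by the residual epithelium signal over the higher of the others, with the floor in place, the brightest Slc4a1 probe set was at place 8 of 22626 probe sets of chip A. Alas2 was at place 11, the second Slc4a1 probe set at 13, Rhag at 75, Klf1 at 307 and the brighter Epb42 probe set at 419. The third Slc4a1 probe set was at 1095, Gata1 at 1135 and the second Epb42 probe set at 1188. Where OSN and brain signals were below the floor these places follow the floor. With the floor at percentile 10, the log2 ratio of residual epithelium over brain was 6.77 for Alas2 and 6.61 for the brightest Slc4a1 probe set, an order opposite to that of the places. The Tfrc probe sets, from the brightest to the dimmest, were at places 1726, 3048 and 16941, the dimmest of them being higher in brain.

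**Figure D2:**
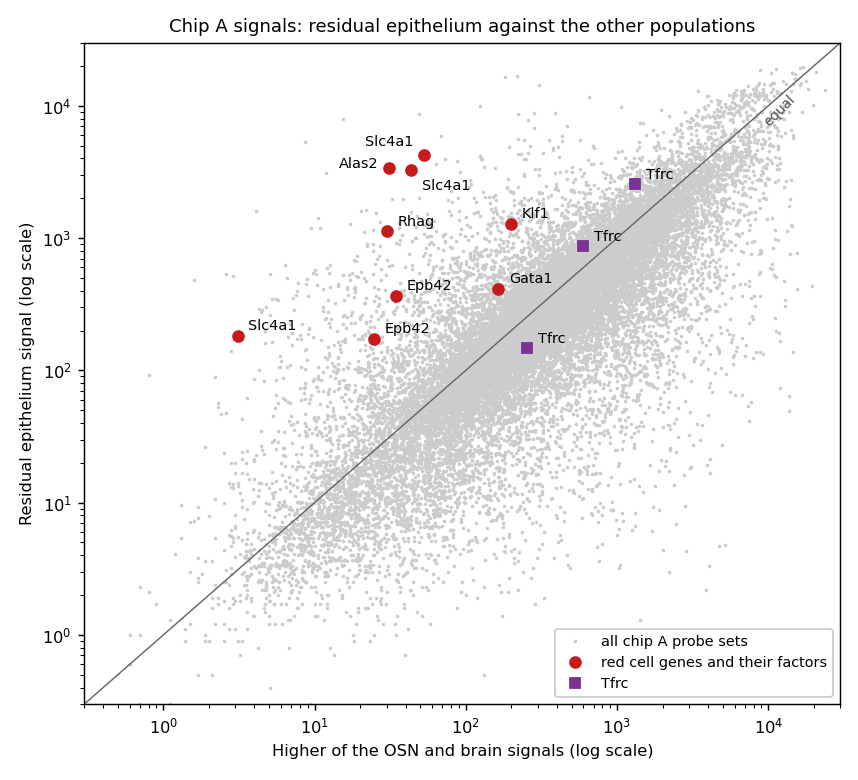
Residual epithelium signal (vertical, log scale) against the higher of the OSN and brain signals (horizontal, log scale) for every probe set of chip A that is no control, with the erythroid probe sets in colour. Slc4a1, Alas2 and Rhag lie at the upper left edge of the cloud, and of the erythroid probe sets those of Tfrc lie closest to the line of equal signal.

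In numbers, 9 of the 12 probe sets were counted for OSNs over residual epithelium and all 9 were at least 2-fold lower in OSNs, where 18.8% of the 12754 counted probe sets of chip A were. Of these 9, 7 passed the signal filter through residual epithelium only, which fixes their direction. Only Tfrc probe sets had both signals at the chip median. The median log2 ratio of the 9 was -3.16, against -0.02 over all counted probe sets. Between residual epithelium and brain, 10 were counted, 7 were at least 2-fold higher in residual epithelium (21.2% of the 13823 counted probe sets were) and none was lower (20.7% of them were). The median log2 ratio of the 10 was 2.54, against 0.05 over all. For 8 of these 10, 1 population alone passed the filter.

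Tfrc was the only member with a probe set above the chip median in all 3 populations. Its brightest probe set had 747.8 in OSNs, against 2552 in residual epithelium and 1309 in brain. The second had 240.9 (OSNs), 866.2 (residual epithelium) and 597.7 (brain). By these, OSNs were 3.41-fold and 3.60-fold below residual epithelium, log2 differences above both the spread between chips and the SD of 0.85 between probe sets of a gene, while residual epithelium was 1.95-fold and 1.45-fold above brain, log2 differences of 0.96 and 0.54 that lie below the matching SD of 1.03. The third probe set had 88.6 in OSNs, against 147.1 in residual epithelium and 253.1 in brain, and its log2 ratio of -0.73 for OSNs over residual epithelium lies below the SD of 0.85. Brain was the highest there, as for no other of the 12 probe sets. The SDs of 0.85 and 1.03 are of a difference between 2 probe sets and not of 1 ratio, so they are only a rough guide here.

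OSNs and brain, the pair that sets mature olfactory neurons against other neurons and glia, could be compared for Tfrc only. All 3 of its probe sets were counted, and 2 were at least 2-fold lower in OSNs (the second by 2.48-fold and the third by 2.86-fold), where 22.0% of the 13139 counted probe sets were. With the floor at percentile 40 only 1 was. With the signal filter at percentile 75 none was, because these 2 were no longer counted. By gene, each gene taken at 1 probe set, Tfrc was not among the 21.1% of 12380 counted genes that were at least 2-fold lower in OSNs, since its brightest probe set stood for it. That probe set was 1.75-fold lower in OSNs than in brain. By the median over its 3 probe sets instead, Tfrc had a log2 ratio of -1.31, past 2-fold, so the call by gene depends on this choice. For the 9 probe sets of other genes both signals missed the chip median, and Gata1, with 83.0 in OSNs and 163.2 in brain, had the widest gap among those above the floor.

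The control probe sets of Tfrc allowed the only repeat on the other chip. At the 3′ end of the transcript, chip A gave 93.5 in OSNs, against 417.8 in residual epithelium and 261.5 in brain. Chip B gave 288.2 (OSNs), 1259 (residual epithelium) and 971.1 (brain). The log2 ratio of OSNs over residual epithelium was -2.16 on chip A and -2.13 on chip B, and that of residual epithelium over brain was 0.68 and 0.37. The chips thus gave the same order. For residual epithelium over brain chip A gave the higher ratio, whereas over the shared probe sets it was the lower one on average. For the 5′ control, chip B gave 189.0 in OSNs, against 429.8 in residual epithelium and 256.6 in brain, and chip A gave values near the floor, 58.9 in OSNs, against 73.9 in residual epithelium and 85.3 in brain. For the middle control, chip A gave 24.4 (OSNs), 88.7 (residual epithelium) and 42.4 (brain), and chip B gave 37.0 in OSNs, against 223.6 in residual epithelium and 141.5 in brain, all below the chip median. In all, 5 of the 6 control measurements were highest in residual epithelium and 1 in brain.

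The ratio of 3′ to 5′ Tfrc signal, a sign of transcript integrity, was for chip B 1.52 (OSNs), 2.93 (residual epithelium) and 3.78 (brain). For chip A it was 5.65 in residual epithelium and 3.07 in brain, both against 5′ signals just above the floor, and no ratio is given for OSNs, whose 5′ signal was below the floor. For the Actb controls the ratio lay between 1.15 and 1.42 over the 6 arrays, a narrower range than that of Tfrc on chip B. The part of RNA quality in the Tfrc signals was not tested.

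**Figure D3:**
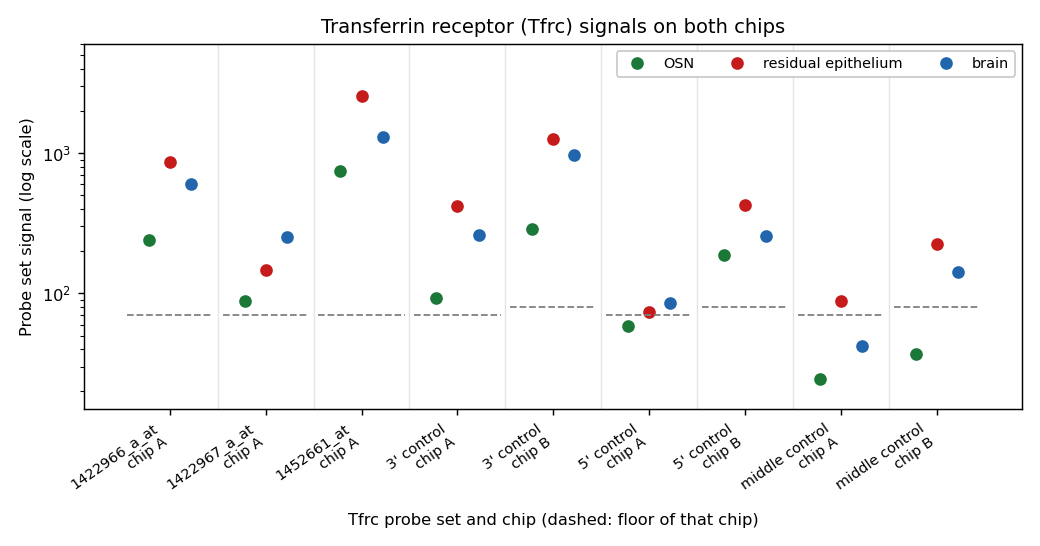
Tfrc signals (vertical, log scale) by probe set and chip in OSNs, residual epithelium and brain, 1 array each, with the floor of the chip dashed. Residual epithelium is highest in 7 of the 9 measurements and OSNs are lowest in all 9.

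Other genes of the red cell programme came from lists of genes known from it, each gene represented by 1 probe set. Among late erythroid genes, 11 were counted and 10 were at least 2-fold lower in OSNs than in residual epithelium, against 18.7% of 12254 counted genes, with a median log2 ratio of -3.10 for the list. Hemgn, a nuclear protein of blood precursors, had 11.9 in OSNs, against 3111 in residual epithelium and 9.6 in brain, at least 44.2-fold lower in OSNs than in residual epithelium. Blvrb, a biliverdin reductase, had 11.9 in OSNs, against 1634 in residual epithelium and 21.9 in brain, at least 23.2-fold lower. Bpgm, which makes the phosphate that loosens oxygen from haemoglobin, was 2.10-fold lower and Prdx2, an abundant red cell peroxiredoxin, 1.97-fold. Of the 11 genes, 8 passed the filter through 1 population only. Against brain, 10 of the 11 were at least 2-fold higher in residual epithelium, where 22.5% of 12916 counted genes were. In that comparison 7 of the 11 passed the filter through 1 population only.

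The list of other membrane and skeleton genes was divided. Of 15 counted, 9 were at least 2-fold lower in OSNs than in residual epithelium and 1 was higher (median log2 ratio -2.05), where 18.7% of all counted genes were lower and 12.8% higher. Of the 15, 9 passed the filter through 1 population only, which fixes their direction. Aqp1, a water channel of red cells and of many epithelia and vessels, had 110.0 in OSNs, against 2054 in residual epithelium and 151.1 in brain. Cldn13, a claudin of mouse red cell precursors, had 92.5 (OSNs), 1164 (residual epithelium) and 72.2 (brain), 12.6-fold lower in OSNs. Dmtn, an actin-bundling protein found in both red cells and brain, had 4780 in OSNs, against 1284 in residual epithelium and 3415 in brain, and was 3.72-fold higher in OSNs. Add2, a spectrin-binding adducin of both red cells and neurons, had 11297 in OSNs, against 5851 in residual epithelium and 6891 in brain by its brightest probe set, but by another on the same chip it had 257.9 (OSNs), 1249 (residual epithelium) and 46.5 (brain), so its probe sets gave opposite orders. Between residual epithelium and brain the list had 7 higher and 4 lower genes among 16, where 22.5% of counted genes were higher and 18.9% lower. Of these 16, 8 passed the filter through 1 population only.

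Among other erythroid transcription regulators, 5 of 10 were lower by 2-fold or more in OSNs than in residual epithelium and 1 was higher (median log2 ratio -1.45), beside 18.7% lower and 12.8% higher among all counted genes. Of the 10, 6 passed the filter through 1 population only. Myb, a factor of immature blood cells in general, had 79.6 in OSNs, against 2289 in residual epithelium and 24.5 in brain, 28.8-fold lower in OSNs. Zfpm1, the Gata1 partner FOG1, had 72.6 in OSNs, against 718.9 in residual epithelium and 462.7 in brain, 9.90-fold lower, with a dim second probe set at 76.0 in OSNs, against 135.0 in residual epithelium and 168.9 in brain. Lmo2, which bridges Gata1 and Tal1 in blood precursors, had 1458 (OSNs), 1402 (residual epithelium) and 743.9 (brain), with OSNs close to residual epithelium. Bcl11a, a repressor of fetal globin that neurons also use, had 4351 in OSNs, against 2124 in residual epithelium and 403.0 in brain, 2.05-fold higher in OSNs.

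Heme is made in all cells, and the other enzymes of its synthesis differed far less than Alas2. All 7 measured ones were counted with both signals at the chip median in each comparison. Fech, which puts iron into the ring, had 1284 in OSNs, against 3673 in residual epithelium and 1254 in brain, 2.86-fold lower in OSNs. Urod had 3792 in OSNs, against 10358 in residual epithelium and 2242 in brain, 2.73-fold lower. Uros was 1.22-fold lower, and Ppox was 1.57-fold higher in OSNs, with 862.3 (OSNs), 547.9 (residual epithelium) and 362.3 (brain). Alas1, the form of the first enzyme used outside red cells, had 581.0 in OSNs, against 991.0 in residual epithelium and 583.5 in brain, a log2 ratio of -0.77 for OSNs over residual epithelium, against at most -5.59 for Alas2. The list median was -0.77. By the 1 probe set taken per gene, Fech and Urod were the 2 of 7 enzymes past 2-fold in this comparison. Among all counted genes 18.7% were lower by that much. By other probe sets Cpox was at -1.31, Alad at -1.09 and Fech at -2.47 and -2.03, also past 2-fold. A further Cpox probe set, not counted, was at 0.48, and a further Fech one was below the floor in all 3 populations.

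**Figure D4:**
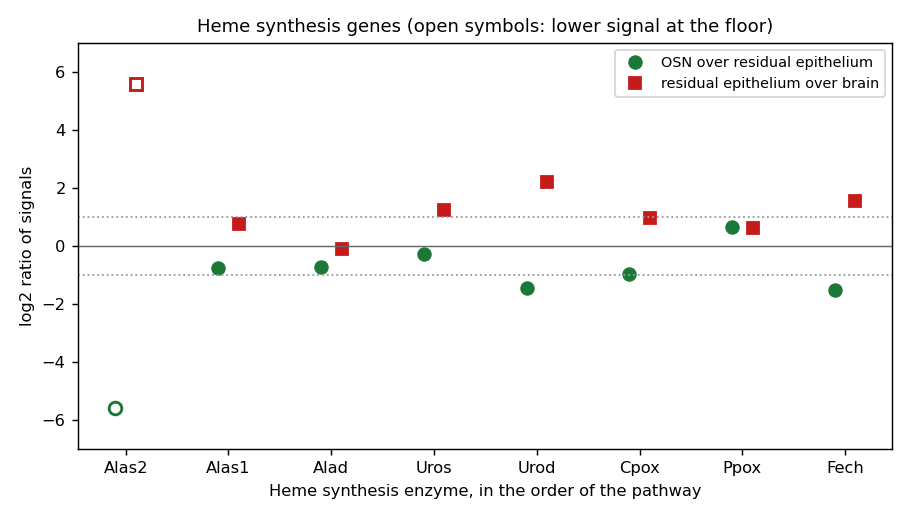
Log2 ratios of OSNs over residual epithelium (circles) and of residual epithelium over brain (squares) for the heme synthesis genes in pathway order, open where the lower signal was at the floor, with dotted lines at 2-fold. Alas2 lies at -5.59 and 5.59, and the other 7 genes lie between -1.52 and 2.21.

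Of 9 counted iron genes other than Tfrc (median log2 ratio -0.75), 2 were at least 2-fold lower in OSNs than in residual epithelium and 1 was higher, shares near those of all counted genes (18.7% lower, 12.8% higher). Slc25a37, mitoferrin, which carries iron into mitochondria for heme and is best known from red cell precursors, had 351.8 in OSNs, against 2034 in residual epithelium and 266.9 in brain, 5.78-fold lower in OSNs. Slc40a1, the iron exporter ferroportin, which macrophages that recycle red cells use, had 218.5 in OSNs, against 700.2 in residual epithelium and 372.9 in brain, 3.20-fold lower. Hfe, which binds the transferrin receptor and takes part in iron sensing, had 1516 (OSNs), 333.1 (residual epithelium) and 269.7 (brain), and was 4.55-fold higher in OSNs, and its second probe set had 393.3 in OSNs, against 57.2 in residual epithelium and 137.2 in brain. Tfr2, the second transferrin receptor, had 323.3 in OSNs, against 325.1 in residual epithelium and 353.7 in brain, near equal in the 3 populations. Of the globin genes measured by a probe set of their own, only Hbb-b2, an adult beta globin, was counted, with 9.4 (OSNs), 1189 (residual epithelium) and 6.3 (brain). Its second probe set was below the floor in every population, with 58.1 (OSNs), 57.7 (residual epithelium) and 12.7 (brain), and showed no excess in residual epithelium. Globin genes are near-identical copies that probes can confuse, so its level is uncertain.

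Markers of other blood cells moved with the erythroid genes. The 10 neutrophil and marrow markers had summed signals of 1637 in OSNs, against 75185 in residual epithelium and 1091 in brain. All 10 were at least 2-fold lower in OSNs than in residual epithelium (18.7% of all counted genes were), from Ctsg (at least 8.44-fold) to Camp (at least 124-fold), and 7 of them passed the filter through residual epithelium only. Below the floor were 5 of the 10 in OSNs, none in residual epithelium and 4 in brain. The 7 B lineage markers summed to 626.6 in OSNs, against 9014 in residual epithelium and 573.1 in brain, with all 7 lower in OSNs, among them Cd79a by 19.0-fold and Rag1 by at least 8.35-fold, and all 7 passed through residual epithelium only. Below the floor were 4 of the 7 in OSNs, none in residual epithelium and 4 in brain. The 7 macrophage markers summed to 1096 (OSNs), 8444 (residual epithelium) and 5070 (brain), and all 6 counted were at least 2-fold lower in OSNs than in residual epithelium, 5 of them having passed through residual epithelium only. These are genes that brain microglia also express, and C1qa, a complement gene, had 16.5 in OSNs, against 1004 in residual epithelium and 609.0 in brain. The part of these cells in the erythroid signals was not tested.

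Markers of lineages that share Gata1 with red cells had sums closer together across the populations, but these sums mix counted markers with dim ones that were not counted. The 7 megakaryocyte and platelet markers summed to 1042 in OSNs, against 1217 in residual epithelium and 1512 in brain, and Ppbp and Gp9 were below the floor in all 3. Of 2 counted for OSNs over residual epithelium, 1 was at least 2-fold lower in OSNs, where 18.7% of all counted genes were. Pf4, the platelet factor, had 120.6 in OSNs, against 289.4 in residual epithelium and 171.8 in brain, and Itga2b 398.6 (OSNs), 275.0 (residual epithelium) and 386.9 (brain). The 7 mast cell and basophil markers summed to 655.2 in OSNs, against 1145 in residual epithelium and 517.4 in brain. Ms4a2, measured on chip B, made up 283.3 of the OSN sum. Of 3 counted, 2 were at least 2-fold lower in OSNs than in residual epithelium (median log2 ratio -1.85), both through 1 population only. Between residual epithelium and brain, 2 of 3 counted were at least 2-fold higher in residual epithelium, where 22.5% of counted genes were, and all 3 passed through 1 population only. Mcpt8, a basophil protease, had 34.6 in OSNs, against 380.5 in residual epithelium and 16.3 in brain. Cpa3, a mast cell protease, had 68.2 (OSNs), 254.1 (residual epithelium) and 100.2 (brain), while Fcer1a had 40.7 in OSNs, against 56.5 in residual epithelium and 71.4 in brain. Endothelial markers, a sign of vessels, summed to 1255 in OSNs, against 999.2 in residual epithelium and 3248 in brain. Only 2 of these 7 were counted for OSNs over residual epithelium and neither was 2-fold apart, so the sums give no order of that pair. Between residual epithelium and brain, 4 were counted, all through 1 population only. Of these, 3 were at least 2-fold lower in residual epithelium, where 18.9% of counted genes were.

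**Figure D5:**
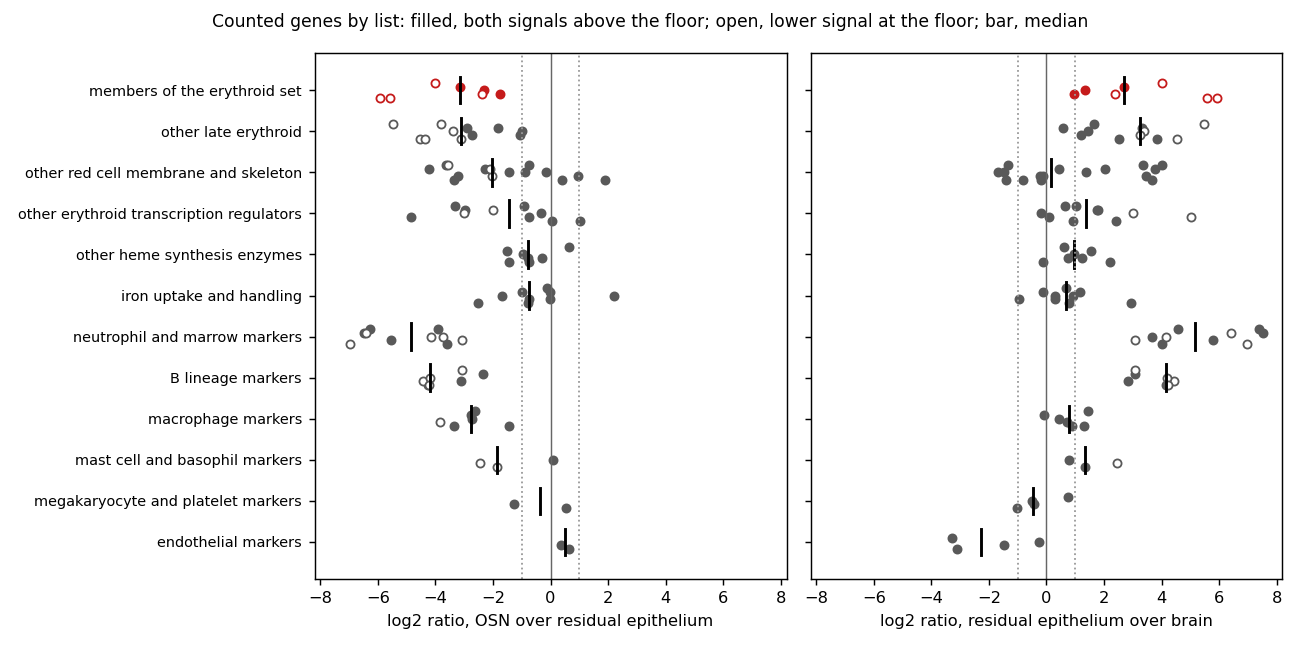
Log2 ratios of counted genes by list for OSNs over residual epithelium (left) and residual epithelium over brain (right), with bars at the medians and dotted lines at 2-fold. The erythroid, late erythroid, neutrophil and B lineage lists have medians between -4.85 and -3.10 on the left, and the macrophage list, at -2.75 there, has a median of 0.80 on the right.

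Cell cycle genes are used by dividing precursors of every kind. All 8 counted were at least 2-fold lower in OSNs than in residual epithelium, where 18.7% of all counted genes were. Of these 8, 7 passed the filter through residual epithelium only, which fixes their direction. Mki67 had 73.0 in OSNs, against 3947 in residual epithelium and a signal below the floor in brain, and Aurka, a mitotic kinase, had 172.1 (OSNs), 837.5 (residual epithelium) and 125.2 (brain). The brain signal of Tfrc was 1309 by its brightest probe set, between those of the other populations. Of the cell cycle genes only 1 was counted for OSNs over brain, so no order of that pair is given for them. Which cells carried the Tfrc signal was not tested.

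The genes nearest to each member were found by the distance of floored log2 signals over the 3 populations of chip A. For Alas2 they were Slc4a1 (its second probe set, distance 0.06) and Hemgn (0.13), and for the brightest Slc4a1 probe set Mki67 (0.12) and the myeloid gene Chil3 (0.32). Klf1 was nearest to Tmem131l (0.26) and Rbm38 (0.29), and Gata1 to Sdc1 (0.18) and Prim2 (0.21). Rhag was nearest to Tax1bp3 (0.01) and Lst1 (0.03), and Epb42 to Steap4 (0.00) and Ikzf1 (0.01). Tfrc was nearest to Marcks (0.41) and Elavl4 (0.42). For Slc4a1, Alas2, Rhag and Epb42, OSN and brain signals were at the floor, so the distance there rests on the signal of different probes in residual epithelium almost alone and says nothing of a shared pattern.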

How the data were processed

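Biotin-labelled RNA was hybridised to Affymetrix mouse expression arrays, 3 populations on each of 2 chips. Each deposited value is the linear intensity of a probe set in 1 colour, made by the authors with MAS5 per the submitters' processing notes, which name it, without a version, for 5 of the 6 arrays (not brain on chip A). The background step is not given in the sources used. The 6 trimmed means (percentile 2 to 98) were all from 499.6 to 499.9, which shows deposited intensities at 1 common level, and a few abundant transcripts can lower all others. The number of arrays limits the precision.

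Gene symbols came from the platform annotation, updated through Entrez identifiers to the GRCm38.p6 RefSeq table, and probe sets with several symbols named no gene. The 64 control probe sets of each chip were left out of backgrounds. For lists, each gene stood at 1 probe set, the one whose mean log2 signal had the highest percentile within its chip. Ratios were log2 values of floored signals within a chip (floor at percentile 25, filter at percentile 50). The computation was checked on simulated arrays. Genes named outside the members are the 2 highest and 2 lowest counted of each list (all, for up to 4), 2 nearest genes per member, and checks, and a few further genes (Alas1, Ppbp, Gp9 and Fcer1a) were chosen after their values were seen. The members and lists were chosen with earlier results of these data known. Alternatives were other floors, a pseudocount of 16, other filters, centring, quantile normalization, scaling on shared probe sets, the median over probe sets and a 4-fold threshold. The tools were numpy 2.4.6, pandas 2.3.3, Python 3.11.15 and, for plots, matplotlib 3.10.9.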

Additional observations from a re-analysis of the deposited data

How the results depend on the processing

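All 9 counted probe sets stayed at least 2-fold lower in OSNs than in residual epithelium under each alternative floor, the pseudocount and each scaling, and 7 were at least 4-fold lower. No ratio of a member that was counted changed sign under any alternative run. The median of OSNs over residual epithelium was -2.35 with no filter and -4.0 with the filter at percentile 75, since these add dim probe sets or drop them. That of residual epithelium over brain was 3.21 with the floor at percentile 10, 2.02 at percentile 40, 1.88 with no filter and 4.0 at the stricter filter. For OSNs over brain, the count of lower Tfrc probe sets, 2 as reported, was 1 with the floor at percentile 40 and 0 at 4-fold. With the stricter filter it was 0, because the 2 lower probe sets were no longer counted. By the median over probe sets, Tfrc stood as 1 value, -1.31, and was lower. The median for OSNs over brain, -1.31 as reported, was -0.81 with the higher floor and the stricter filter and 0.00 with no filter. Ratios against signals below or just above the floor follow the floor: Gata1 was -1.50 with the floor at percentile 40, and Alas2 ranged from -7.64 to -4.54 for OSNs over residual epithelium, Tfrc only from -1.89 to -1.75. Scaling on the shared probe sets moved the median of all probe sets to -0.16 for OSNs over residual epithelium and -0.19 for OSNs over brain, and quantile normalization to 0.08 and 0.11, without changing these calls. No paired analysis was possible because each population had 1 array per chip. Without replicates, the spread between animals is unknown.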

Other observations

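On chip A, 4 probe sets are annotated to several globin genes each, so no single gene is named from them, and their values were looked at after the other results were known. All but 1 of these were bright in every population. The brightest had 7129 in OSNs, against 19058 in residual epithelium and 11266 in brain, and residual epithelium was 2.67-fold above OSNs and 1.69-fold above brain. The second had 5209 in OSNs, against 18530 in residual epithelium and 8754 in brain, 3.56-fold above OSNs and 2.12-fold above brain. The third had 4531 (OSNs), 13061 (residual epithelium) and 6152 (brain), 2.88-fold and 2.12-fold above them. The remaining one had 147.8 in OSNs, against 7874 in residual epithelium and 258.3 in brain, with residual epithelium 53.3-fold above OSNs and 30.5-fold above brain. In OSNs and brain the 3 bright globin probe sets were thus far above the chip median of 222, while Slc4a1 (52.8 in OSNs and 43.8 in brain by its brightest probe set) and Alas2 (16.3 in OSNs and 31.1 in brain) were below the floor. The source of the globin signal was not tested.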
